A study of Mus musculus with 965 samples.

Results

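Dnmt3a and Dnmt3b, the genes of the enzymes that set new DNA methylation, were followed in single cells of mouse embryoid bodies. Both were picked by name, as 2 of the 36849 genes of a read count table over 965 cells. An embryoid body is a floating aggregate that embryonic stem cells form once leukemia inhibitory factor is withdrawn, and in which the germ layers arise. All cells were derived from E14, a line of mouse embryonic stem cells, and were taken at days 3, 6 and 8 of differentiation. WT carried both genes and was 1 culture (230 cells). 3AKO, homozygous for a Dnmt3a knockout, was represented by the clones 3A2 and 3A38 (363 cells). 3BKO, homozygous for a Dnmt3b knockout, was represented by the clones 3B126 and 3B77 (372 cells). Each clone and day was 1 sorted plate of 40 to 80 cells, except that WT at day 8 joined plates C343 (21 cells) and C344 (68 cells), and that 3A2 had no day 8 cells among those analysed here. A cell held 50096 to 3442378 reads, and the median per plate ran from 152478 to 500240 reads. Neither the labels nor the methods at hand say what part of either gene a knockout removed, so a read from the remaining exons cannot be told from a read of an intact transcript. Both 3AKO clones made up batch 1, WT and 3B126 batch 2 and 3B77 batch 3, so batch and genotype cannot be told apart for 3AKO. At day 8 the labels of 2 plates are in doubt. The library labelled 3B77 day 8 had 130 CPM of 4 Y-linked genes (Ddx3y, Eif2s3y, Uty, Kdm5d), while each other 3BKO plate had at most 1 read of them. WT plate C344 had none, while the other WT plates had 10.1 to 94.9 CPM. These values go against the labels of both plates, and Dnmt3b was too low at day 8 to check them.

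De novo DNA methyltransferases place methyl groups on cytosines that lack them on both strands, whereas Dnmt1, guided by Uhrf1, copies existing methylation after replication. Dnmt3a and Dnmt3b share a catalytic domain and a PWWP domain, which binds methylated histone tails. Dnmt3l, which has no activity of its own, stimulates both. In the mouse embryo Dnmt3b is the form most abundant in the epiblast, and Dnmt3a persists in many later tissues. Dnmt3a has an upstream promoter for its long form and a downstream promoter for a shorter form that dominates in embryonic stem cells, and counts per gene do not separate these forms.

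Dnmt3a (ENSMUSG00000020661.15) lies on chromosome 12, 3806007 to 3914443, plus strand, and Dnmt3b (ENSMUSG00000027478.15) on chromosome 2, 153649450 to 153687730, plus strand, in GENCODE M21 on GRCm38. Whether reads of one gene could be counted for the other was checked on the annotated transcripts. None of the 17073 distinct windows of 75 bases (the read length) in Dnmt3a transcripts occurred in a Dnmt3b transcript, in either orientation. The longest stretch that the 2 genes share had 18 bases. In the longest coding transcripts it spans coding bases 891 to 908 of Dnmt3a-218 and 723 to 740 of Dnmt3b-207, counted from 1 at the start codon. It is printed here in capitals with 15 bases on either side, to show how soon the paralogs part.
Dnmt3a: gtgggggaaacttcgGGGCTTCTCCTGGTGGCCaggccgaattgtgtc
Dnmt3b: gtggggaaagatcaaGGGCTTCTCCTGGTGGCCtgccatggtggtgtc
Of the flanking 15 bases, 9 matched before the stretch and 8 after it. Dnmt3b and its rodent copy Dnmt3c had 328 windows in common, which was 6.17% of the Dnmt3b windows, and reads from these are dropped as multi-mapped. Dnmt3c itself had 7 reads in 5 cells. The antisense genes Dnmt3aos and Dnmt3bos had 11 reads and 56 reads, each in 8 cells. The exons of Dnmt3aos overlap those of Dnmt3a over 133 bases and those of Dnmt3bos overlap Dnmt3b nowhere, and without a stated strand setting reads in the overlap cannot be assigned.

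The 250 bases before the RefSeq starts (GRCm38.p6) are shown for 3 of the 4 starts listed for the 2 genes, since the levels of both were lower at later days, with GGGCGG or its reverse complement CCGCCC, the GC box, in capitals.
Dnmt3b, chr2:153649199-153649448, plus strand: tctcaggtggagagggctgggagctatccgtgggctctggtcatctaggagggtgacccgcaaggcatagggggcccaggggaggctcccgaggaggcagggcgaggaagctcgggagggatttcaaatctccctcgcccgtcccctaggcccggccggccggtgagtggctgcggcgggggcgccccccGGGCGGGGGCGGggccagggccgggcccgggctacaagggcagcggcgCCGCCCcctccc
Dnmt3a upstream start, chr12:3806730-3806979, plus strand: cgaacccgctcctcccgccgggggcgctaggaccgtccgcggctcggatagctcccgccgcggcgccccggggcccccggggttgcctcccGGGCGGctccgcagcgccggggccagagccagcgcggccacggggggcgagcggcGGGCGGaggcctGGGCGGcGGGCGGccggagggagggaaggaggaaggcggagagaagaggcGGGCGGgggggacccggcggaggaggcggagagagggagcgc
Dnmt3a downstream start, chr12:3891494-3891743, plus strand: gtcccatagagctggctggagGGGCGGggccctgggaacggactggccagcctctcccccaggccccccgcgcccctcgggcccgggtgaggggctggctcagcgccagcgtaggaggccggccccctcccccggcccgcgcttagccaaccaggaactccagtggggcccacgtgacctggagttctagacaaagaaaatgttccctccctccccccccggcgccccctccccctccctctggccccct
The fourth, a Dnmt3a start with the window 3806910 to 3807159, overlaps the upstream window and 91 bases of exon, and its sequence is not printed. The 3 windows shown held 21, 38 and 15 CpG dinucleotides, and the fourth 40, against a median of 6 over 32851 promoters of the same length. A GC box was present 3, 5 and 1 times, and 4 times in the fourth, and occurs in 32.7% of all promoters. No window held the TATA box letters TATAAA or TTTATA (12.4% of all promoters) or the octamer ATGCAAAT or ATTTGCAT (1.601%).

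The targeted genes were examined first in single cells. At day 3 nearly every cell with an intact gene had reads of it: Dnmt3a was detected in 97.3% of WT, 93.2% of 3B126 and 98.7% of 3B77 cells, and Dnmt3b in 97.3% of WT, 98.6% of 3A2 and 100% of 3A38 cells. In the targeted clones Dnmt3a was still detected in 49.3% of 3A2 cells (34 of 69, exact 95% interval 37.02 to 61.6%) and 47.1% of 3A38 cells (33 of 70, 35.1 to 59.4%). Dnmt3b was detected in 32.9% of 3B126 cells (24 of 73, 22.3 to 44.9%) and 70.9% of 3B77 cells (56 of 79, 59.6 to 80.6%). The 3AKO clones thus lay within each other's interval, and the intervals of the 3BKO clones did not overlap. These intervals cover the counting of cells only. Cells of 3B77 held more reads (median 320674 per cell) and more genes (median 6907) than cells of 3B126 (median 207399 reads and 3713 genes), and the share depends on depth. With every cell thinned to 50000 reads, by the exact expectation of drawing without replacement, the residual share of Dnmt3b was 20.9% in 3B126 and 53.3% in 3B77, and that of Dnmt3a 34.4% in 3A2 and 25.0% in 3A38. Batch and clone cannot be told apart for 3B77, which alone made up batch 3.

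**Figure D1:**
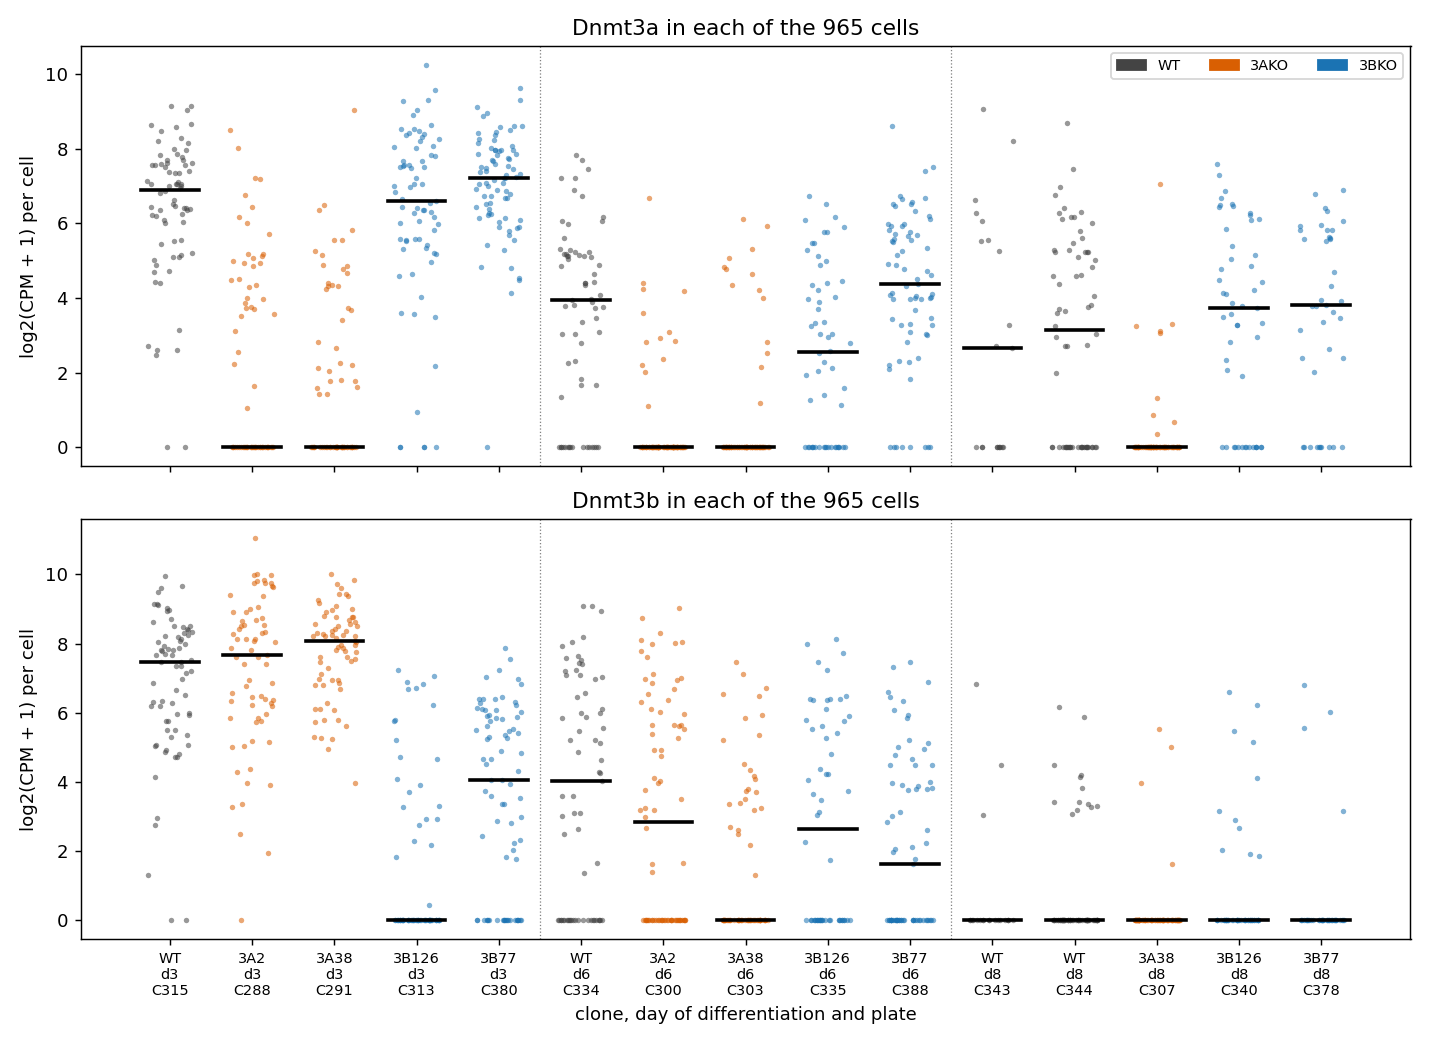
Dnmt3a (top) and Dnmt3b (bottom) in single cells, as log2(CPM + 1), with 1 point per cell and a black bar at the median of each of the 15 plates, ordered by day (d) and coloured by genotype. At day 3 the median is 0 on both 3AKO plates for Dnmt3a and on the 3B126 plate for Dnmt3b, while 3B77 keeps a median Dnmt3b level of 15.7 CPM.

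Averaged over clones, the thinned share of cells with Dnmt3a at day 3 was 29.7% in the 3AKO clones and 90.1% in the remaining 3, which is −60.5 as 3AKO minus the rest in percentage points. For Dnmt3b it was 37.1% in the 3BKO clones and 93.3% in the remaining 3, which is −56.2. The 2 targeted clones did not overlap the other 3 for either gene. The exact permutation test over the 5 clones (two-sided, 10 regroupings) gave p = 0.1 for both, which is the smallest p that this design allows.

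Per cell, the residual level was lower as well as rarer. CPM is a gene's count divided by all reads of the same cell and scaled to a common total. In WT at day 3 the cells with reads had a mean of 148.5 CPM Dnmt3a, against 51.4 CPM in 3A2 and 35.9 CPM in 3A38. For 3A2, a mean over all cells that was 5.70-fold lower than in WT was made up of a share of cells 1.97-fold lower and a level in cells with reads 2.89-fold lower. The same 3 ratios were 8.53, 2.06 and 4.13 for 3A38. For Dnmt3b, the cells with reads had a mean of 227 CPM in WT, 44.9 CPM in 3B126 and 50.6 CPM in 3B77. The ratios of WT over clone were 14.98 for the mean, 2.96 for the share and 5.06 for the level in 3B126, and 6.16, 1.37 and 4.49 in 3B77. The residual cells of both 3BKO clones thus had similar mean levels, but their median levels were 20.2 CPM in 3B126 and 42.6 CPM in 3B77. The clones also differed in how many cells had reads.

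A few cells held much of the residual reads. On the 3A2 plate at day 3, 1 cell gave 37.1% of the 663 Dnmt3a reads and 3 cells gave 56.1%. On the 3A38 plate 3 cells gave 54.3% of 470 reads. In 3B126, 3 cells gave 64.7% of 553 Dnmt3b reads, against 21.8% of 924 reads in 3B77. For intact genes at day 3 the highest 3 cells gave 14.1 to 35.1% of the reads. The highest 3A38 cell stood at 519.5 CPM Dnmt3a (123 reads) with 912 CPM Dnmt3b, and the next cell of that plate at 88.2 CPM. A level at or above the median WT cell (119 CPM Dnmt3a, 177 CPM Dnmt3b) was reached by 4 of 69 cells in 3A2, 1 of 70 in 3A38, 0 of 73 in 3B126 and 2 of 79 in 3B77. What these cells are was not tested.

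**Figure D2:**
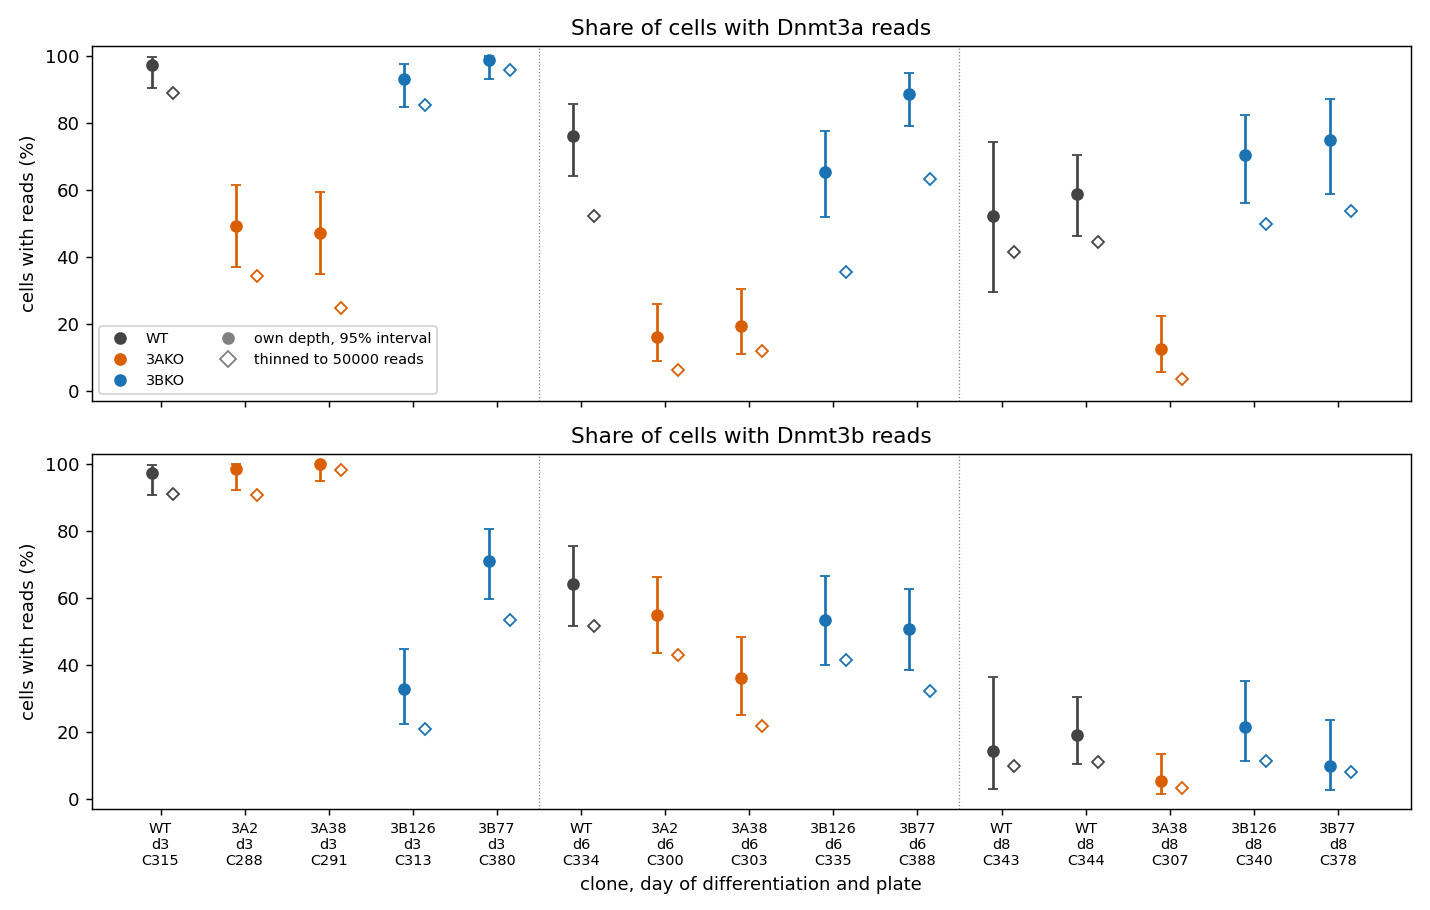
Share of cells with at least 1 read of Dnmt3a (top) and Dnmt3b (bottom) on each of the 15 plates (d is day). Filled circles are cells at their own depth with exact 95% binomial intervals, and open diamonds are the same cells thinned to 50000 reads. Dnmt3a separates 3AKO from the other genotypes at each day, whereas for Dnmt3b the 3BKO plates stand apart at day 3 only.

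At day 6 the 2 genes differed in how the targeted clones compared with the rest. Dnmt3a was detected in 16.2% of 3A2 and 19.4% of 3A38 cells, against 76.1% in WT, 65.5% in 3B126 and 88.7% in 3B77. Dnmt3b was detected in 53.4% of 3B126 and 50.7% of 3B77 cells, inside the range of its intact clones, which had 43 of 67 cells (WT), 44 of 80 cells (3A2) and 26 of 72 cells (3A38). The 3B126 cells with Dnmt3b reads had a mean of 68.6 CPM at day 6, above their 44.9 CPM at day 3, and 24 of 58 cells lay at or above the WT median of that day (15.3 CPM). In 3B77 these cells had a mean of 36.1 CPM, and 18 of 71 reached the WT median. The library of 3A38, with its Dnmt3b gene intact, had 13 of 72 such cells.

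Summed per clone and day and scaled by the TMM factors of edgeR (a trimmed mean that corrects for library composition), Dnmt3b in 3B126 stood at 31.1 CPM at day 3 and 47.4 CPM at day 6, a ratio of 1.53. In every other clone it was lower at day 6 than at day 3, by 4.78-fold in WT, 3.39-fold in 3A2, 34.2-fold in 3A38 and 3.22-fold in 3B77. Dnmt3a was lower at day 6 in all 5 clones, targeted or not, by 5.69-fold to 12.5-fold. With this scaling, residual Dnmt3a in 3AKO kept about the same ratio to the intact gene of WT. It was at 13.5% of the WT level at day 3 and 14.8% at day 6 in 3A2, and at 7.79% and 8.90% in 3A38. In means over single cells the ratio moved. WT over 3A2 was 5.70 at day 3 and 12.7 at day 6, and WT over 3A38 was 8.53 and 6.80. Residual Dnmt3b was at 9.30% of WT at day 3 and 67.8% at day 6 in 3B126, and at 9.17% and 13.6% in 3B77. With this scaling the 3BKO clones thus had like levels at day 3 and unlike levels at day 6. The likeness at day 3 depended on the scaling. In plain CPM 3B126 stood at 17.8 and 3B77 at 35.3, and the means over single cells were 14.8 and 35.9 CPM.

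These differences were tested with edgeR's quasi-likelihood test, which fitted a mean for each genotype and day to the 14 sums, with Benjamini-Hochberg adjustment over 24083 genes. The log2 fold change of Dnmt3a in 3AKO over the mean of WT and 3BKO was −3.28 (SE 0.74) on day 3. It was −2.96 (SE 0.73) on day 6 and −4.64 (SE 1.10) on day 8, and each 3AKO clone lay below every other clone. The edgeR adjusted p were 0.339, 1.00 and 0.121. That of Dnmt3b in 3BKO over the mean of WT and 3AKO was −3.24 (SE 0.96) on day 3. It was −0.85 (SE 0.86) on day 6 and 1.31 (SE 0.94) on day 8, with edgeR adjusted p of 1.00, 1.00 and 0.996. Neither gene was called in any of these comparisons. The share of all genes called in the matching comparison was 0% at days 3 and 6 for both and 0% at day 8 for 3BKO, and 0.0789% (19 genes) at day 8 for 3AKO. The 95% intervals of the fold change lay wholly below 0 for Dnmt3a at each day (the highest upper end was −1.40) and for Dnmt3b at day 3 (−5.27 to −1.22). DESeq2 called Dnmt3a at each day (adjusted p = 7.79e-05, 0.0045 and 3.38e-05), where it called 3.8%, 0.345% and 3.99% of all genes, and did not call Dnmt3b at any, with adjusted p = 0.0527 at day 3. Without 3B77, edgeR called Dnmt3a at day 3 (adjusted p = 0.0386) along with 2.41% of all genes. For Dnmt3b the day 6 value was 0.26 without 3A2 and −2.41 without 3B126, and the day 8 value was 0.57 without the 2 doubtful plates. WT has 1 sum per day and 3AKO has 1 at day 8, and both were assumed to vary like the other clones. The p-values measure the spread between knockout clones, which includes plate. It includes batch for the 3BKO clones only, since both 3AKO clones were in batch 1.

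Whether the residual transcript changed between days 3 and 6 relative to the intact gene was tested as a difference of these effects. For Dnmt3b the target effect at day 6 minus that at day 3 was 2.39 ± 1.21 (SE, 95% interval −0.18 to 4.96, edgeR adjusted p = 1.00), and for Dnmt3a 0.33 ± 0.93 (−1.65 to 2.30, adjusted p = 1.00). No gene was called in either (0% of 24083), while 578 and 1493 genes had an unadjusted p under 0.05, and DESeq2 called 101 and 251. Without 3B126 the Dnmt3b value was 0.84, and without 3A2 it was 3.57.

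**Figure D3:**
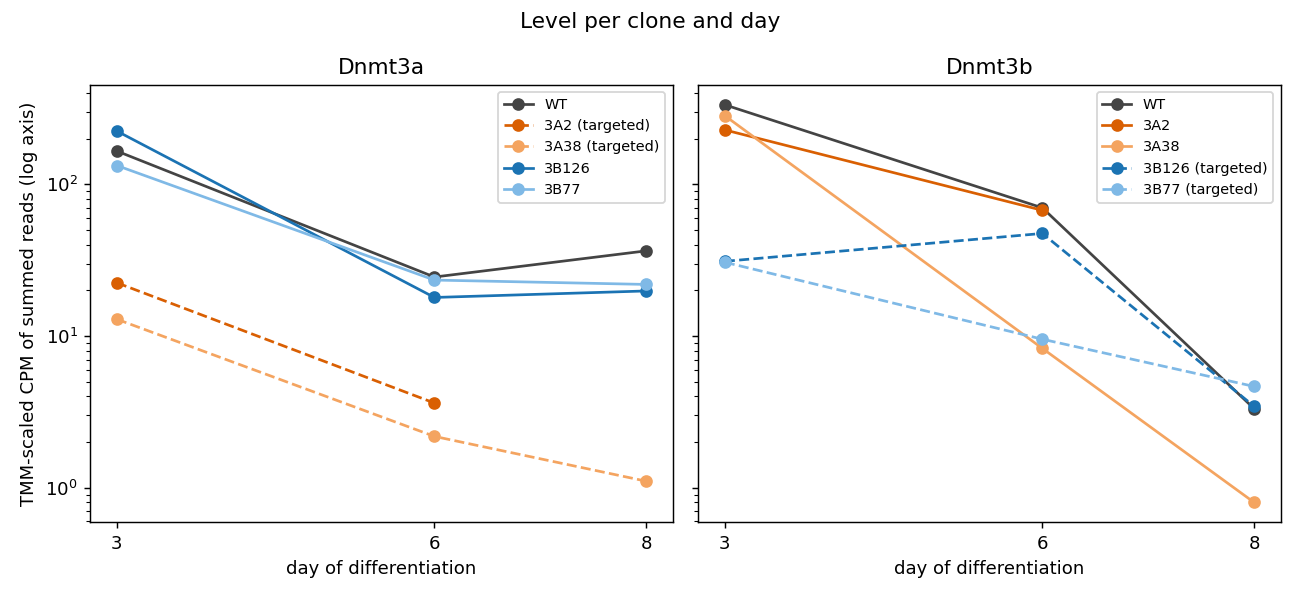
TMM-scaled CPM of Dnmt3a (left) and Dnmt3b (right) in the summed reads of each clone against day, on a log axis, with dashed lines for clones whose own gene was targeted. The Dnmt3a lines of 3AKO run below the others at each day, whereas the Dnmt3b lines of 3BKO start at 31.1 and 30.6 CPM and lie among those of the intact clones at day 6.

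Both genes had lower levels later in differentiation where they were intact. At day 3, Dnmt3a stood at 174 ± 46.3 CPM (SD, n = 3 clones) and Dnmt3b at 282 ± 52.97 CPM (n = 3). At day 6, Dnmt3a stood at 21.9 ± 3.50 CPM and Dnmt3b at 48.5 ± 34.9 CPM. At day 8, Dnmt3a stood at 26.03 ± 9.04 CPM (n = 3) and Dnmt3b at 2.06 ± 1.78 CPM (n = 2, with 3.32 CPM in WT and 0.801 CPM in 3A38), beside 3.44 CPM in 3B126 and 4.65 CPM for the library labelled 3B77. The log2 fold change of Dnmt3a, averaged over WT and 3BKO, was −2.93 ± 0.67 (SE) at day 6 and −2.64 ± 0.66 at day 8 against day 3, with edgeR adjusted p of 0.187 and 0.160. That of Dnmt3b, averaged over WT and 3AKO, was −2.51 ± 0.84 at day 6 and −7.49 ± 1.19 at day 8, with edgeR adjusted p of 0.586 and 0.0383. Dnmt3b at day 8 was thus called, as 1 of 7 genes (0.0291% of those tested), and the 3 other changes were not, where 0.00415% (1 gene) was called in each. The call was lost without 3A38 (adjusted p = 0.203) and without WT (0.160), and held with the clone as a replicate block (0.0102, with 0.253% of all genes called). The day 6 changes were called for Dnmt3a without 3B77 (0.0440, with 2.36% of all genes called) and for Dnmt3b without 3A2 (0.0400, with 1.26%). DESeq2 called both changes of Dnmt3a and the day 8 change of Dnmt3b, in comparisons where it called 6.58%, 8.38% and 5.76% of all genes. In bulk sums, fewer cells with a transcript and less of it per cell cannot be told apart. Single cells give a value for each, but a lower level or depth also lowers the share of cells with reads. The 2 are thus separated only in part. In WT, cells with Dnmt3b reads went from 97.3% (day 3) to 64.2% (day 6) and 17.98% (day 8), and their mean level from 227 to 115 and 24.96 CPM. Cells with Dnmt3a reads went from 97.3% to 76.1% and 57.3%, and their mean level from 148.5 to 43.01 and 63.01 CPM.

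The 2 WT plates of day 8 differed in Dnmt3a, with 94.5 plain CPM on C343 and 23.7 on C344, although the shares of cells with reads were alike (52.4% and 58.8%) as were the median cells (5.31 and 7.82 CPM). On C343, 3 of 21 cells gave 93.1% of the 520 Dnmt3a reads, against 28.6% of 280 reads for the top 3 of C344. With both doubtful plates left out, the log2 change from day 3 to day 8 was −1.98 for Dnmt3a (edgeR adjusted p = 0.168) and −6.99 for Dnmt3b (0.0144, called, with 1.84% of all genes).

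Whether one gene stood higher where the other was targeted was asked against WT, and no such difference was called. Dnmt3b in 3AKO minus WT had a log2 fold change of −0.39 ± 1.09 (SE) at day 3 (95% interval −2.70 to 1.92), −0.89 ± 1.07 at day 6 (−3.17 to 1.39) and −2.05 ± 1.36 at day 8 (−4.93 to 0.82). Dnmt3a in 3BKO minus WT had 0.11 ± 0.86 at day 3 (−1.71 to 1.93), −0.24 ± 0.85 at day 6 (−2.05 to 1.56) and −0.80 ± 0.84 at day 8 (−2.58 to 0.97). The edgeR adjusted p ranged from 0.816 to 1, and 0% of the genes were called in each of these 6 comparisons, with 341 to 1835 genes at an unadjusted p under 0.05. DESeq2 called 18 to 705 genes in them and did not call the untargeted gene in any. The intervals are wide and include a 2-fold difference in either direction at days 3 and 6. At day 3 the direction depended on the scaling. Dnmt3b stood at 228 and 283 TMM-scaled CPM in 3A2 and 3A38 against 334.2 in WT, but at 245.5 and 285 plain CPM against 239, and the mean over single cells in WT was 0.68 of that in 3A2 and 0.73 of that in 3A38. The median log2 difference of all genes in this comparison was 0.36 with TMM and 0.25 with DESeq2 size factors. At day 8, Dnmt3a in 3BKO minus WT was −2.27 without both doubtful plates and 0.24 without WT plate C343, where 3 cells held most reads. For Dnmt3a at day 3, 3B126 stood at 224 and 3B77 at 133 TMM-scaled CPM, on either side of WT at 166. At day 6 the clones of 3AKO parted, with Dnmt3b at 67.4 CPM in 3A2, 8.29 CPM in 3A38 and 69.95 CPM in WT. The 3A38 plate also had the lowest summed level of 10 epiblast markers of the day 6 plates, 72.7 CPM against 350 to 829 CPM. It had the highest of 13 meso-endoderm markers, 20574 CPM against 25.6 to 3072 CPM, and of 9 ectoderm markers, 3186 CPM against 92.0 to 1143 CPM. Their part in the Dnmt3b level was not tested.

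**Figure D4:**
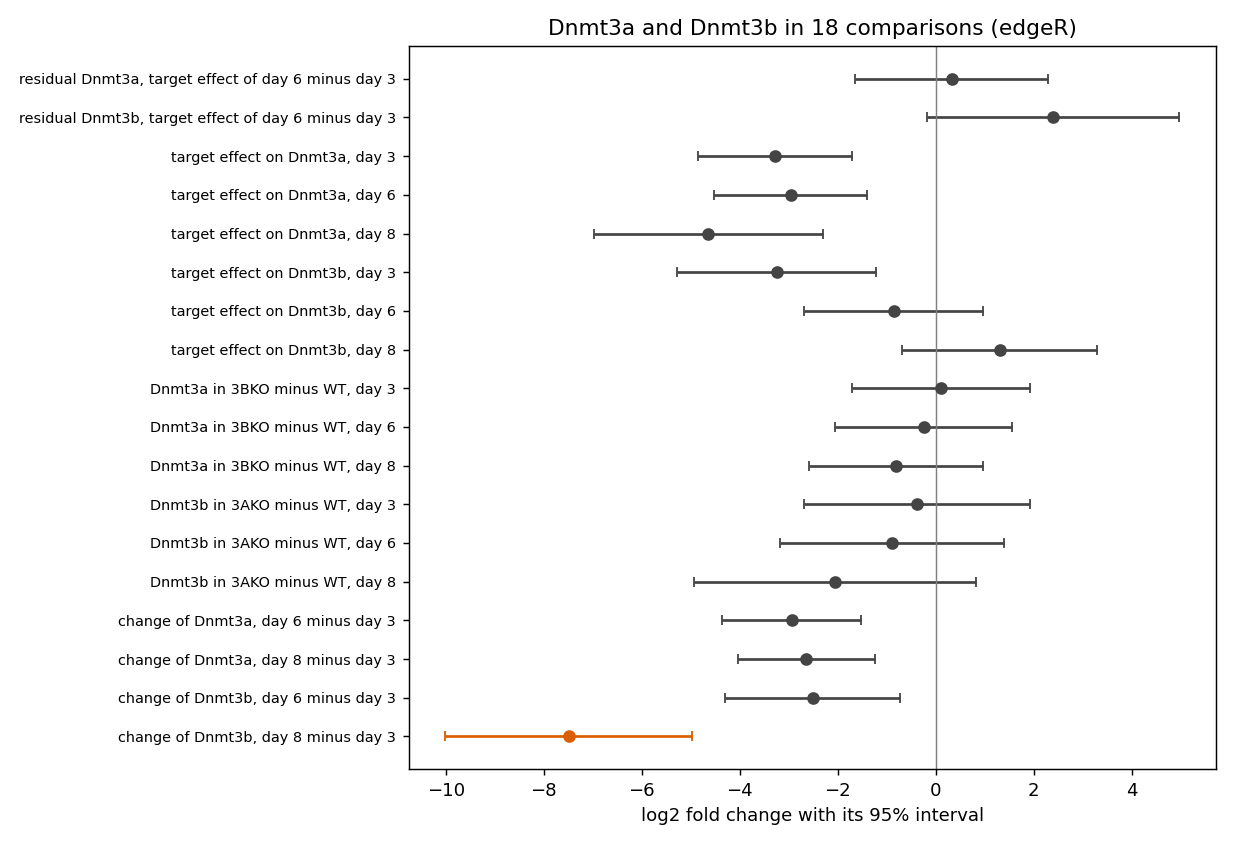
Log2 fold changes of Dnmt3a and Dnmt3b from the edgeR fit in 18 comparisons, with 95% intervals. Targeted effects compare the knockout with the mean of the other genotypes, and the orange point marks the comparison with an adjusted p under 0.05. The intervals of the 6 comparisons of the untargeted gene with WT all include 0.

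The share of the pair's reads that came from Dnmt3b does not depend on the scaling of the library. In WT it was 66.9% on day 3, then 74.1% on day 6 and 8.36% on day 8. On plates C343 and C344 taken alone it was 6.31% and 11.9% at day 8. In 3A2 it was 91.1% and 94.9% at days 3 and 6, and in 3A38 95.6%, 79.2% and 42.03% over the 3 days, the last from 69 reads in all. In 3B77 it was 18.7%, 28.95% and 17.5%. In 3B126 it was 12.2% at day 3, 72.6% at day 6 and 14.8% at day 8, so that at day 6 it stood beside WT. Per length (16642 bases for Dnmt3a and 5106 for Dnmt3b over all annotated exons), WT had an RPKM of 7.11 for Dnmt3a and 46.8 for Dnmt3b at day 3. Dnmt3b was thus 6.58-fold higher at day 3 and 9.31-fold higher at day 6. At day 8 the order turned, with Dnmt3a 3.36-fold higher, and 4.56-fold and 2.26-fold on C343 and C344 taken alone. With the lengths of the longest coding transcripts, the ratio of Dnmt3b over Dnmt3a was 4.86 at day 3, 6.88 at day 6 and 0.22 at day 8.

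Each cell was next classed by which of the 2 genes it had reads of. At day 3, 70 of 74 WT cells had reads of both (94.6%, exact 95% interval 86.7 to 98.5%), 2 of Dnmt3a only, 2 of Dnmt3b only and none of neither. At day 6 both were present in 32 of 67 WT cells (47.8%), and 5 had neither. At day 8 both were present in 10 of 89 (11.2%), 41 had Dnmt3a only, 6 Dnmt3b only and 32 neither. Of these 89 cells, 68 came from plate C344, whose label is in doubt. Cells with neither gene made up 42.5% of 3A2 and 52.8% of 3A38 at day 6, against 7.46% in WT, 20.7% in 3B126 and 7.04% in 3B77. They were 81.9% of 3A38 at day 8 (59 of 72, 71.1 to 90.0%), where no cell of 72 had both (exact interval up to 4.99%). On that plate the product of the shares of the single genes was itself only 0.694%. Thinned to 50000 reads, cells with neither at day 6 were 54.7% in 3A2 and 69.6% in 3A38. They were 25.6% in WT, 39.2% in 3B126 and 28.4% in 3B77. The share was again highest in the 3AKO clones, where Dnmt3a was the targeted gene.

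**Figure D5:**
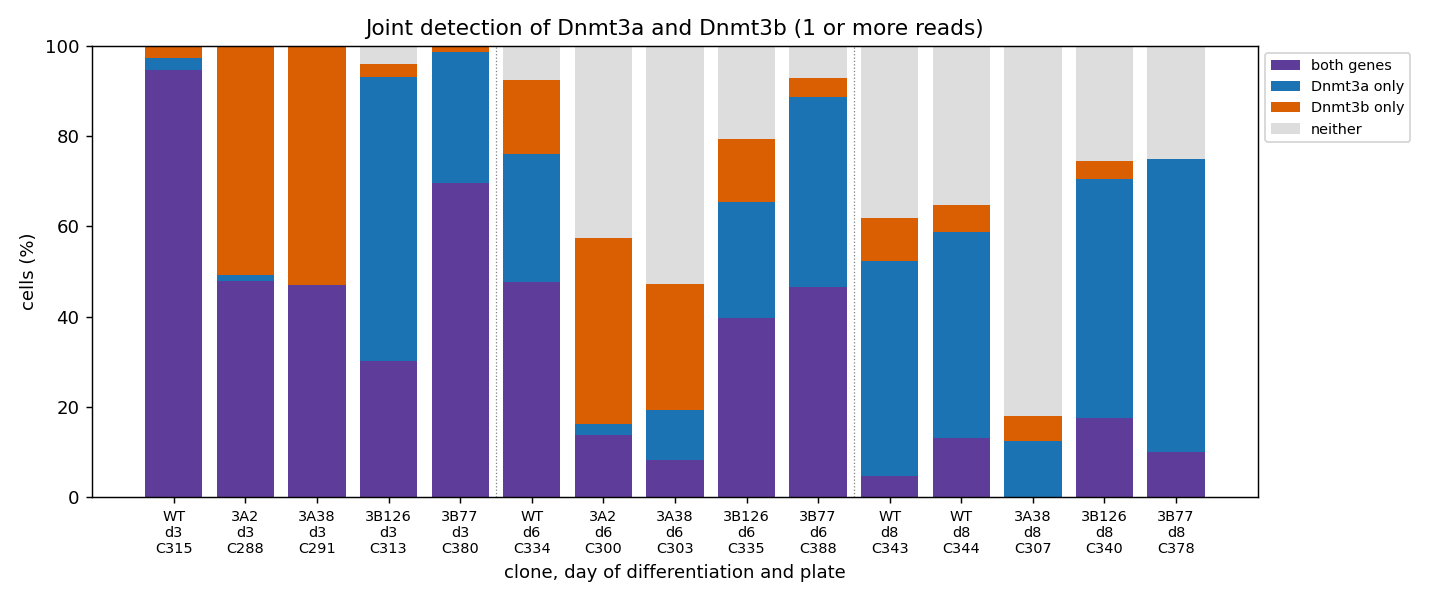
Cells with at least 1 read of both genes, of Dnmt3a only, of Dnmt3b only or of neither, as a percentage of the cells of each of the 15 plates (d is day). Cells with both make up 94.6% of WT at day 3 and 11.2% of WT over both plates of day 8, and cells with neither are most frequent in 3A38 at day 8, at 81.9%.

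The joint share was set against the shares of the single genes. Cells with both genes were more frequent than the product of the 2 shares on 7 of 15 plates, and on 11 of 15 after thinning to 50000 reads. Before thinning, each day 3 plate had a gene detected in nearly every cell, which holds the joint share near the product. In 3A38 at day 3 both were 47.1%. Spearman's rho between the CPM of the 2 genes across the cells of a plate was positive on 13 of 15 plates, from 0.09 to 0.22 at day 3 and from 0.10 to 0.31 at day 6, and from −0.26 to 0.25 at day 8. These are weak correlations in sparse counts of cells that share a plate and differ in depth, and are given as a description. In WT at day 3, 47 cells had more Dnmt3b than Dnmt3a reads and 27 fewer. In the targeted clones, the median cell with residual reads had more of the other gene than the median cell without on 8 of 11 plates, less on 1 and an equal level on 2. In 3A2 at day 3 the medians were 272 CPM Dnmt3b in 34 cells with Dnmt3a reads and 94.9 CPM in 35 cells without. In 3B126 at day 3 they were 182 CPM Dnmt3a in 24 cells with Dnmt3b reads and 86.4 CPM in 49 cells without. On all 4 day 3 plates of targeted clones the cells with residual reads were also deeper, with medians of 276982 against 220578 reads in 3A2 and 279714 against 167180 in 3B126. At day 6 they were shallower on 3 of 4 plates. On 2 of these the other gene was still higher in the cells with residual reads, with medians of 6.77 against 3.14 CPM Dnmt3a in 3B126 and 43.05 against 14.8 CPM in 3B77. The part of depth was not tested.

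Cells were then divided by 4 genes at 10 CPM, on plates with at least 5 cells on each side. Pou5f1 encodes the pluripotency factor OCT4. At day 6 it divided 4 plates, and on all 4 the thinned share of cells with Dnmt3a and that with Dnmt3b were higher in the cells with Pou5f1. In WT, Dnmt3b was detected in 70.6% of 21 Pou5f1 cells and 43.2% of 46 other cells after thinning, with mean levels of 139 and 44.1 CPM. In 3B126, targeted Dnmt3b was detected in 56.8% of 26 Pou5f1 cells and 29.3% of 32 others, and in 3B77 in 39.2% of 44 and 20.97% of 27. Intact Dnmt3a in 3B126 was at 50.5% and 23.6%. At day 8 the 2 plates that could be divided were WT plate C344, whose label is in doubt, and that of 3B126. Both had the higher thinned share of Dnmt3a and the lower thinned share of Dnmt3b in Pou5f1 cells. Mean Dnmt3a was lower in these cells, at 24.5 against 31.9 CPM on C344 and 28.5 against 32.8 CPM in 3B126. Without thinning, the Dnmt3a share on C344 was lower in them too (56.5% against 60%). Tubb3, a neuronal tubulin, divided 5 plates at day 6, with a higher thinned share of Dnmt3b in its cells on 4 and of Dnmt3a on 3. At the other days the Dnmt3b share was higher in Tubb3 cells on 1 of 5 plates (day 3) and on 1 of 3 (day 8). Kdr, the receptor of vascular endothelial growth factor that marks early mesoderm, divided 3 plates at day 6. Both genes were more often detected in its cells on 2, those of 3A2 and 3A38, where Dnmt3a was the targeted gene. On the WT plate of day 6 both were less often detected in Kdr cells after thinning. Dnmt3a was detected in 48.3% of 20 Kdr cells and 54.2% of 47 others, and Dnmt3b in 48.8% and 53.02%. In 3A38 at day 6, residual Dnmt3a was read in 10 of 21 Kdr cells and in 4 of 51 others (31.7% and 3.90% thinned), at median depths of 255344 and 261685 reads. Col3a1, a collagen of mesenchyme, divided 2 plates at day 6, where its cells had the higher share of Dnmt3a and the lower share of Dnmt3b. Cells of 1 plate share their source, so no test was made.

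Of the other 20 genes of the methylation machinery that were listed, 19 passed the filter on low counts, and none was called in any of the 18 comparisons (0 of 342 results by edgeR, which called 0.00669% of the results of all genes). DESeq2 called 9 of 342, near the 2.31% it called over all genes, so this count is no result about the list. Dnmt3c did not pass the filter. The genes behind these 9 are named after their values were seen. Zfp57 was higher in 3AKO at day 3, with 667 CPM in 3A2 and 143 CPM in 3A38. It stood at 6.44 CPM in WT and 23.6 CPM in 3B126, but at 226 CPM in 3B77, above 3A38. Tet3 was higher in 3AKO at day 8, where 3AKO is the library of 3A38 alone (755 CPM, against 16.7 CPM in WT). Between days, Tet3 was higher and Kdm2b lower at day 8 in WT and 3AKO, again with 3A38 alone for 3AKO. In WT and 3BKO Tet1 was lower at days 6 and 8 and Hells at day 8. Zfp57 protects imprinted methylation, Tet1 and Tet3 oxidise methylcytosine, Kdm2b binds unmethylated CpG islands and Hells is a chromatin remodeller that aids methylation. The median log2 fold change of the list was −0.39 for day 8 against day 3 in WT and 3BKO (all genes 0.08), and −0.85 in WT and 3AKO (all genes 0). Dnmt1, the maintenance enzyme, ranged from 69.5 to 147 CPM at day 3, from 85.3 to 135 CPM at day 6 and from 37.8 to 85.1 CPM at day 8. Uhrf1 ranged from 94.1 to 277 CPM at day 3, from 45.4 to 125 CPM at day 6 and from 32.5 to 136.5 CPM at day 8. Dnmt3l, the cofactor of both members, was detected in 29 of 69 3A2 cells at day 3 and 18 of 80 at day 6, and in at most 16.5% of the cells of any other plate. The naive pluripotency markers were highest in the same clone, with 435 and 722 CPM summed over 8 genes, against 22.5 to 263 CPM on all other plates. Their part in the Dnmt3l level was not tested.

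By Pearson's r of log2(TMM-scaled CPM + 5) over the 9 libraries of WT and 3BKO, the genes most like Dnmt3a were Mkrn1 (0.97), Coq3 (0.97), Zfp652 (0.97), Shld2 (0.96) and Mak16 (0.96), among 7232 genes compared. Over the 8 libraries of WT and 3AKO, those most like Dnmt3b were Lin28a (0.99), Tmem131 (0.98), Resf1 (0.98), Ranbp2 (0.975) and Rngtt (0.96), among 7485. Lin28a, an RNA-binding protein of pluripotent cells, ran from 10.4 to 104 CPM. The members ranked far down each other's lists, with r = 0.52 (place 1830) and 0.54 (place 1257). In the knockout libraries behind each list the other member was the targeted gene. These places therefore cannot show how alike the intact genes are. The libraries share clones and days, and no p is given.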

How the data were processed

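The deposited values are raw counts of reads for each gene in each cell. Per the labels and the study's methods, the authors sorted single cells, amplified cDNA by a modified Smart-seq2 protocol (25 PCR cycles, no molecular identifiers), sequenced single reads of 75 bases then aligned with STAR 2.7.1a to GRCm38 and counted with featureCounts 1.6.1 (FastQC 0.11.2 and Trim Galore 0.5.0 came before), leaving out multi-mapped reads and cells under 50000 reads or 2000 genes or above 50% mitochondrial reads. PCR copies are counted as reads, so intervals cover counting error only, and no source at hand states a strand setting. No column lacked a sample.

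Both genes were analysed per plate, and since cells are not replicates, each clone's cells of a day were added up. The 14 sums (9810248 to 44529830 reads) were filtered with filterByExpr and tested with edgeR 4.0.16 (glmQLFit, robust, then glmQLFTest; threshold 0.05 after Benjamini-Hochberg adjustment), with DESeq2 1.42.0 and limma 3.58.1 as alternatives, in R 4.3.3, after tests on simulated data. Since a clone is the same cell line at each day, the clone pairs libraries across days (correlations of deviations −0.0026 to 0.119) and was a replicate block in an alternative fit. Named genes were the members, listed machinery genes that were called or that were Dnmt1, Uhrf1, Dnmt3l or Dnmt3c, 4 dividing genes and the 5 genes most like each member. The members and lists were chosen with earlier results of these data known.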

Additional observations from a re-analysis of the deposited data

Results flagged for a closer look

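By TMM-scaled CPM, Dnmt3b in 3BKO lay below WT in both clones at days 3 and 6 and above WT in both at day 8. At day 8 the log2 ratio to WT was only 0.05 in 3B126, and 0.49 in the library labelled 3B77. Cells with reads were 21.6% of 3B126, 10% of that library and 17.98% of WT. The labels of that library and of WT plate C344, which is part of the WT sum, are in doubt. The mean log2 ratio of 3BKO over WT was higher at day 8 than at day 3 by 3.71 and higher than at day 6 by 1.99. The difference between the days was not tested for this pair of genotypes. At day 8 it rests on 61 reads in 3B126, 54 in the library labelled 3B77 day 8 and 73 in WT.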

How the results depend on the processing

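The log2 fold changes of the 2 genes kept their direction under every alternative with 4 exceptions. Dnmt3b in 3AKO minus WT at day 3 was 0.50 with limma on the mean CPM per cell, Dnmt3a in 3BKO minus WT was −0.32 at day 3 without 3B126 (0.46 without 3B77) and 0.24 at day 8 without WT plate C343 (an alternative chosen after seeing the data), and the target effect on Dnmt3b at day 6 was 0.26 without 3A2 (−2.41 without 3B126). DESeq2 added calls for Dnmt3a (target effects of −3.41, −2.96 and −4.52 at days 3, 6 and 8; changes of −3.03 and −2.67 at days 6 and 8). Testing all genes with a read added its target effect at day 3 (−3.30) and its changes (−2.94 and −2.68), where 1.01%, 1.94% and 3.01% of all genes were called. With DESeq2 size factors in edgeR the day 8 change of Dnmt3b, −7.41, was not called (adjusted p = 0.0646). With the clone as a replicate block it was called at −7.26 (adjusted p = 0.0102), and the block changed no other call of a member in the comparisons reported. It added a call in one not reported, Dnmt3b at day 8 against day 3 over WT and 3BKO (adjusted p = 0.0268, against 0.120, with 0.61% of all genes called). Leaving out 1 clone at a time gave −8.27 to −6.68 for that change, −3.69 to −2.00 for Dnmt3b at day 6, −3.19 to −2.64 and −3.15 to −2.43 for Dnmt3a at days 6 and 8, and −3.74 to −2.98 for the day 3 target effect on Dnmt3a. Over the listed machinery, DESeq2 called 9 results, no filter 7, and 1 each WT day 8 as 2 plates, libraries of the day alone and the fit without 3A2 (leave-outs 0 to 1). Counts of genes called ran from 0 to 19 per comparison in the main fit, 18 to 2019 with DESeq2, 11 to 1072 without the filter, 0 to 651 with limma and 0 to 147 with the block. Without 1 clone they reached 856 (3A2), 564 (3B77), 74 (3B126) or 1 (WT), with 3A38 between 3B77 and 3B126, and 436 without the 2 doubtful plates. Joint detection above the product of shares held on 11 plates after thinning, against 7. The comparisons with WT could not be fitted without WT, nor those of 3AKO at day 8 without 3A38. The cause of these differences was not tested. Dnmt3b at day 8 rests on few reads, 29 to 73 for each clone. The 29 came from 3A38, whose sum held the most reads of all (44529830).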
